A study of Sus scrofa with 6 samples.

Results

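The cyclins, the cyclin-dependent kinases (CDKs), their inhibitors and the E2F and retinoblastoma (RB) proteins were followed in piglet lung across birth. They were taken as a list of 58 gene symbols, of which 46 had a row in the deposited table of 14579 mRNAs. The reference gene names gave 41 of these rows and the names of called genes in the supplementary table of the study gave 5 (CCNA2, CCND1, CDK2, CDKN2B and E2F3). Those 5 could be found only because the study had called them, and the reference gives their symbols to other identifiers, so the main counts are also given without them. The other 12 genes were not analysed here, which leaves out all of CDKN1A, CDKN1B and CDKN1C, as well as CCND2, CCND3, CCNT1, CDK5, CDK6, CDC25C, CKS1B, RBL2 and E2F2. The row that the study names CDC25C carries another name in the reference and was not used.

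The lungs came from 6 female Tibetan-Meishan hybrid piglets, with a Tibetan father and a Meishan mother. The prenatal group was 3 piglets taken on the last day before birth from 3 sows, and the neonatal group was 3 piglets taken 2 days after birth from 3 other sows. No treatment was compared, and all parents were kept alike until caesarean and parturition. Each library is from a part of the unsorted lung tissue of 1 piglet. Libraries are called Prenatal1 to Prenatal3 and Neonatal1 to Neonatal3. Values are FPKM, fragments mapped to a transcript scaled to its length and to the mapped fragments of the library. Levels can thus be compared between genes of a lung. Between lungs the scaling is incomplete, since the summed FPKM, given below, differed between the groups.

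A cyclin binds a CDK and switches it on. D-type cyclins with CDK4 and CDK6 act in G1, E-type cyclins with CDK2 at the entry into S phase, A-type cyclins in S and G2, and B-type cyclins with CDK1 in mitosis. Inhibitors of the INK4 family bind CDK4 and CDK6, the kinases WEE1 and PKMYT1 put inhibitory phosphates on CDK1, and CDC25 phosphatases remove them. RB and its relatives hold E2F factors back, and CDKs release them, after which E2F factors switch on genes for DNA synthesis and for the next cyclins. Many other cyclins and CDKs serve transcription instead and are not tied to cell division. Lung tissue is known to grow by division of several cell types in the days around birth.

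Of the 46 measured genes, 17 were higher in the neonatal lungs at an adjusted p of 0.05 or less (limma on log2(FPKM + 1), Benjamini-Hochberg adjustment over all mRNAs). Over all mRNAs the share called higher was 5.41% and the share called in either direction 6.87%. Without the 5 genes named through the study, 13 of 41 were called higher, 19 of 41 had every neonatal value above every prenatal one, and 28 of 41 had the higher mean in the neonatal lungs. None was called lower in limma, where the share over all mRNAs was 1.45%. CCNL1 and CCNG2 were lower at an unadjusted p under 0.05, which is 2 of 46 genes against 6.6% of all mRNAs, and 1 gene was called lower after median-of-ratios scaling and 3 after quantile normalization. In 24 of the 46 every neonatal value lay above every prenatal one, against 20.9% of all mRNAs. The reverse held for CCNG2, CCNL1, CDK7 and CDK13, 4 genes, against 9.64%, so that groups were apart in either direction for 30.5% of all mRNAs. The neonatal mean was the higher one in 33 genes, against 59.9% of all mRNAs. The median difference was 0.55 on the log2(FPKM + 1) scale over the 46 genes, 0.39 over the 41 and 0.13 over all mRNAs. All differences below are neonatal minus prenatal on this scale, which understates the change of genes with low FPKM.

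**Figure D1:**
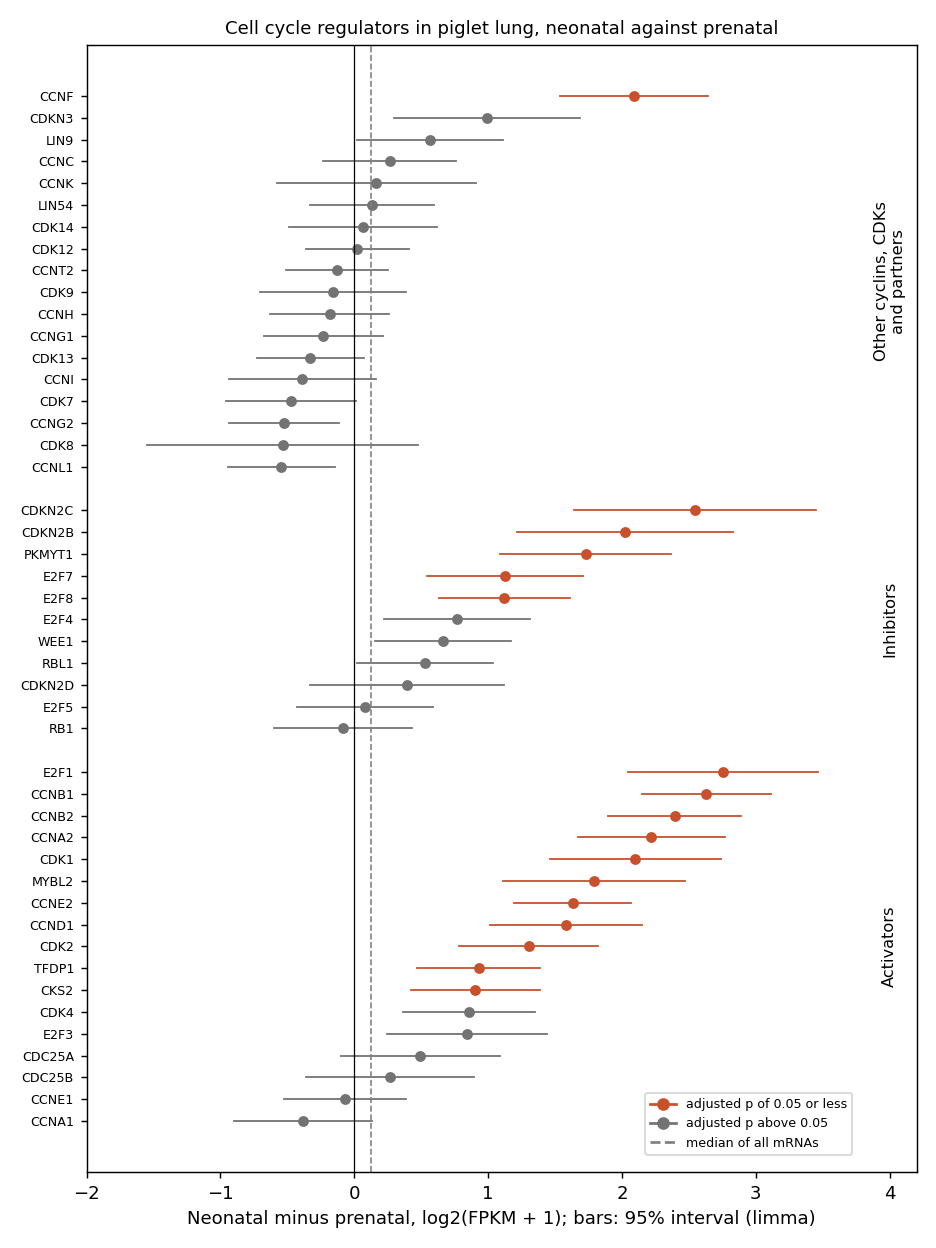
Difference between neonatal and prenatal lungs on the log2(FPKM + 1) scale for the 46 measured genes, with 95% intervals from limma, grouped as activators, inhibitors and other genes. Points in red have an adjusted p of 0.05 or less, and all 17 of them lie to the right of 0, between 0.90 for CKS2 and 2.76 for E2F1.

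Summed FPKM lay between 339491 and 471220 in the prenatal libraries and between 491548 and 777982 in the neonatal ones. The median difference of all mRNAs moved from 0.13 to -0.0090 under median-of-ratios scaling and to -0.038 under quantile normalization. Among all calls, the share that was higher moved from 78.8% to 66.0% and 57.9%. None of the 17 genes changed direction under either scaling. The table holds no read counts, so depth and counting error are not known from it. Lung markers were present in each library, since 5 genes (SFTPC, SFTPB, SFTPA1, AGER and SCGB1A1) together had at least 4991 FPKM, but the club cell gene SCGB1A1 stood at 0.213 FPKM in Neonatal2 against at least 62.0 FPKM in each other library. Markers of other cells also differed between the groups. Beside the counts of markers, 6.87% of all mRNAs were called in either direction and 5.41% higher. At an unadjusted p under 0.05, 2573 of all 14579 mRNAs were higher and 962 lower. A list this small with 0 genes called is near the share over all mRNAs. The neutrophil genes summed to between 84.3 and 158 FPKM in the prenatal and between 851 and 1319 FPKM in the neonatal lungs, and 4 of 6 measured were called higher, whereas ELANE was listed at 0 in each neonatal library. The mesenchymal genes summed to between 1159 and 1544 FPKM against 2067 to 2943 FPKM, with 2 of 7 called higher, and 1 of 7 macrophage genes was called higher, with overlapping sums of 399.9 to 924 FPKM and 671.5 to 1573 FPKM. The alveolar type II genes summed to between 4875 and 5446 FPKM against 6597 to 11791 FPKM, and the endothelial genes to between 480 and 588 FPKM against 644 to 928 FPKM, a difference carried by CLDN5, while the other 6 endothelial genes summed to overlapping ranges of 283 to 323 FPKM and 267 to 312 FPKM. In both lists 0 of 7 measured were called in limma (1 and 2 at an unadjusted p under 0.05). Erythroid and lymphocyte genes, which can come with dividing blood cells, had overlapping sums, with 0 of 8 and 0 of 9 genes called in limma (2 in each at an unadjusted p under 0.05). Sums also overlapped for alveolar type I and ciliated cell genes, with 0 of 4 called in limma in either list (0 and 1 at an unadjusted p under 0.05). All 4 ciliated genes had the lower mean log2 value in the neonatal lungs. Without FOXJ1 their sums did not overlap, at 9.48 to 13.8 FPKM before birth and 6.30 to 8.86 FPKM after it. The part of these cell types in the cell cycle results was not tested. In whole tissue, fewer cells of a type and less RNA per cell cannot be told apart.

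In G1 the D-type cyclin measured here was CCND1. The prenatal lungs 1 to 3 had 48.8, 42.7 and 38.7 FPKM and the neonatal lungs, in the same order of number, 98.8, 169 and 135 FPKM of it, and it rose by 1.58 (standard error 0.24, adjusted p = 0.0134). Every neonatal lung lay above every prenatal one, and the gene moved only from the 92.8th to the 96.7th percentile of all mRNAs, where it had the highest mean of all measured cyclins in both groups, although CCNG1, CCNI and CCNL1 were near it before birth. Its kinase CDK4 had 5.81, 5.03 and 4.06 FPKM before birth and 7.90, 10.1 and 11.6 FPKM after it. The groups of CDK4 did not overlap, but its difference of 0.86 (standard error 0.21) had an adjusted p of 0.0557, and it passed only when the table was restricted to mRNAs above 1 FPKM in at least 3 samples, at 0.0440.

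At the entry into S phase the E-type cyclins parted. CCNE2 rose from 1.42, 1.37 and 1.18 FPKM in the prenatal lungs to 6.34, 5.35 and 7.01 FPKM in the neonatal lungs, a difference of 1.63 (standard error 0.19, adjusted p = 0.00541). CCNE1, which binds the same kinase, was measured at 0.924, 1.25 and 1.35 FPKM and at 1.13, 1.10 and 0.954 FPKM, with overlapping groups and a difference of -0.07 (95% interval -0.52 to 0.38, adjusted p = 0.852). Before birth both genes were at a like level, with 1.54, 1.10 and 0.877 times as much CCNE2 as CCNE1, whereas afterwards the ratio was 5.59, 4.84 and 7.34 (exact two-sided permutation p = 0.1, which is the lowest that 3 against 3 allows). Their kinase CDK2 stood at 15.8, 12.9 and 15.5 FPKM and then at 28.3, 42.9 and 44.1 FPKM, without overlap, and rose by 1.30 (adjusted p = 0.0181). CDC25A, the phosphatase that frees CDK2 from inhibitory phosphate, was at 2.05, 1.94 and 2.49 FPKM before and 3.58, 2.25 and 4.83 FPKM after birth, with overlapping groups (difference 0.49, adjusted p = 0.281).

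The A-type cyclins also differed from each other. CCNA2, the form used by dividing body cells, went from 1.76, 3.19 and 1.81 FPKM to 12.7, 12.5 and 16.8 FPKM, and rose by 2.22 (adjusted p = 0.00435). CCNA1, which is known mainly from germ cells, was at 10.2, 7.79 and 8.37 FPKM and at 5.67, 5.49 and 8.61 FPKM, with overlapping groups and a difference of -0.38 (95% interval -0.90 to 0.13, adjusted p = 0.329). The order of the pair therefore turned: CCNA2 was 0.173, 0.410 and 0.216 times CCNA1 in the prenatal lungs and 2.23, 2.28 and 1.95 times CCNA1 in the neonatal lungs (exact two-sided permutation p = 0.1). A ratio within a library does not depend on the scaling between libraries.

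B-type cyclins drive entry into mitosis. CCNB1 stood at 1.36, 1.31 and 2.22 FPKM before birth and at 13.6, 16.8 and 15.0 FPKM after it, 9.28 times the prenatal mean, and rose by 2.63 (standard error 0.21, adjusted p = 0.00166). CCNB2 went from 0.677, 0.607 and 0.347 FPKM to 8.59, 5.85 and 7.01 FPKM, 13.1 times the prenatal mean (difference 2.39, adjusted p = 0.00254). In rank among all mRNAs, CCNB1 moved from the 23.0th to the 75.4th percentile and CCNB2 from the 9.98th to the 55.2nd. The sum of both was 22.2, 22.6 and 22.0 FPKM in the neonatal lungs, with an SD of 0.310 FPKM in unscaled values. Singly the 2 genes varied more, with a neonatal SD of 1.59 FPKM for CCNB1 and 1.37 FPKM for CCNB2.

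Their kinase CDK1 had 2.58, 1.94 and 4.54 FPKM in the prenatal lungs and 13.8, 14.5 and 19.1 FPKM in the neonatal lungs, and rose by 2.10 (adjusted p = 0.00755). Both B-type cyclins together were 0.790, 0.986 and 0.567 times CDK1 before birth and 1.61, 1.56 and 1.15 times CDK1 after birth. CCNF, a cyclin that binds no CDK and serves as part of a ubiquitin ligase in G2, rose from 0.569, 0.452 and 1.12 FPKM to 6.43, 4.97 and 7.44 FPKM (difference 2.09, standard error 0.24, adjusted p = 0.00523). No neonatal value of CDK1 or CCNF was as low as any prenatal value. CKS2, a small protein that sits on CDKs and helps them to their substrates, was lower in level, at 1.64, 1.11 and 1.09 FPKM and then 3.17, 2.78 and 3.81 FPKM, and rose by 0.90 (adjusted p = 0.0452). CDC25B, which acts on CDK1 in G2, overlapped between the groups, at 4.39, 5.20 and 6.88 FPKM against 9.81, 5.78 and 5.23 FPKM (difference 0.26, adjusted p = 0.581).

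**Figure D2:**
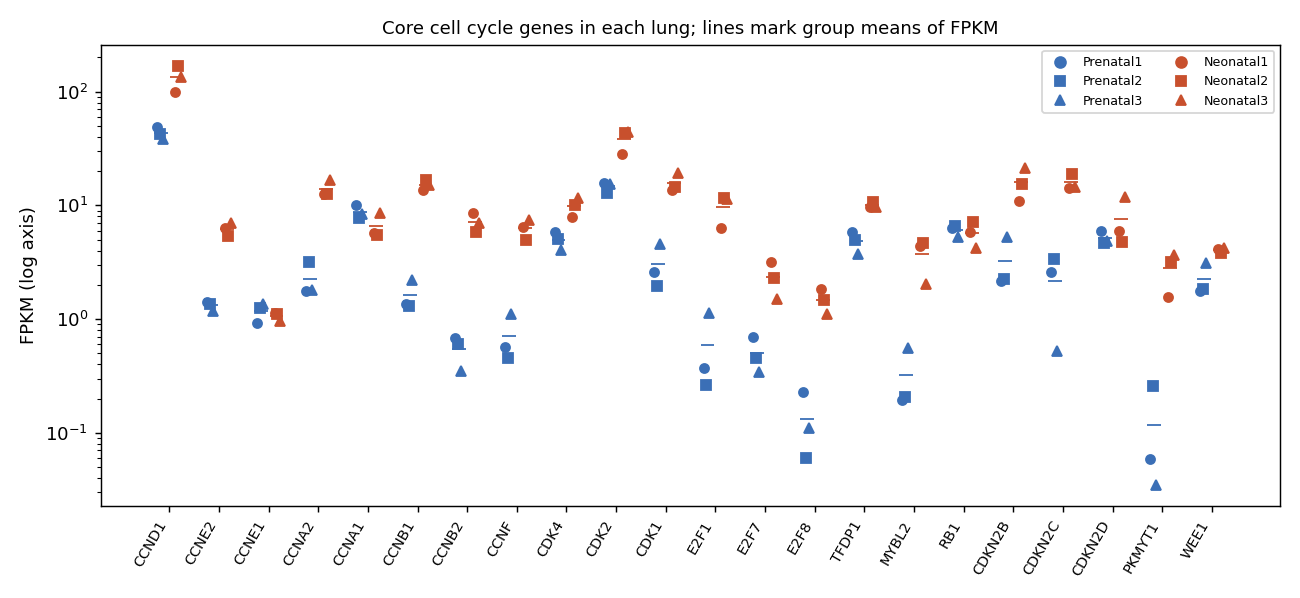
FPKM of 22 core genes in each of the 6 lungs on a log axis, with prenatal lungs in blue, neonatal lungs in red and lines at the group means. CCNE1, CCNA1 and RB1 have overlapping groups, while CCNE2, CCNA2 and E2F1 have all neonatal points above all prenatal points.

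The genes were classed by role. The activators were the cyclins of the cell cycle, CDK1, CDK2, CDK4, the CDC25 phosphatases, CKS2, E2F1, E2F3, TFDP1 and MYBL2, and the inhibitors were the INK4 genes, WEE1, PKMYT1, RB1, RBL1 and the repressor E2Fs. Of the inhibitors, 5 of 11 measured genes rose and none was called lower in limma, where 0 of 11 had an unadjusted p under 0.05 in that direction. The shares over all mRNAs were 5.41% called higher, 1.45% called lower and 6.6% lower at an unadjusted p under 0.05. The counts of 0 of 11 are thus near the shares over all mRNAs. The 5 that rose were CDKN2B and CDKN2C of the INK4 family, the kinase PKMYT1, and the repressors E2F7 and E2F8. The median difference of the 11 inhibitors was 0.76, against 1.30 for the 17 activators, of which 11 were called higher. LIN9, LIN54, CDK7 and CCNH, described below as partners in activation, were counted in neither class. They differed by 0.57, 0.13, -0.48 and -0.18, all below the activator median. The gap between the classes therefore depends on that choice. Without the 5 genes named through the study, of which 4 are activators, the medians were 0.71 over 10 inhibitors, with 4 called higher, and 0.93 over 13 activators, with 8 called higher, so that the gap between the classes fell from 0.54 to 0.22. Relative to the prenatal mean of each gene, the median of the inhibitors was 0.12, -0.092 and -0.065 in the prenatal lungs and 0.68, 1.14 and 0.81 in the neonatal lungs. For the activators it was -0.040, -0.048 and -0.054 and then 1.12, 1.45 and 1.21. Both classes stood higher in every neonatal lung than in any prenatal one, with all 28 genes included. No test was made of these medians, since the genes were chosen with results known.

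The INK4 genes block CDK4 and CDK6 from binding a D-type cyclin. CDKN2B (p15) was at 2.16, 2.26 and 5.28 FPKM before birth and at 10.8, 15.4 and 21.4 FPKM after it, and rose by 2.02 (standard error 0.34, adjusted p = 0.0183). CDKN2C (p18) went from 2.59, 3.36 and 0.520 FPKM to 14.3, 18.8 and 14.6 FPKM, with a difference of 2.54 (standard error 0.39, adjusted p = 0.0126), and Prenatal3 stood well below the other prenatal lungs. CDKN2D (p19) had 5.93, 4.62 and 4.83 FPKM and then 5.93, 4.76 and 11.9 FPKM. It overlapped between the groups, with only Neonatal3 high (difference 0.39, 95% interval -0.33 to 1.12, adjusted p = 0.475).

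Summed, the 3 INK4 genes measured here came to 10.7, 10.2 and 10.6 FPKM in the prenatal lungs and to 31.1, 39.0 and 47.9 FPKM in the neonatal lungs. The prenatal totals were alike although CDKN2B was highest and CDKN2C lowest in Prenatal3. CDKN2A of the same family was not on the list, and CDK6 was not analysed. The sum was 1.84, 2.03 and 2.62 times CDK4 before birth and 3.94, 3.86 and 4.14 times CDK4 after birth, without overlap. Against CCND1 the groups did overlap, at 0.219, 0.240 and 0.275 before and 0.315, 0.230 and 0.354 after birth (exact two-sided permutation p = 0.3). CCND1 itself was 8.40, 8.49 and 9.53 times CDK4 in the prenatal lungs and 12.5, 16.8 and 11.7 times CDK4 in the neonatal lungs (exact two-sided permutation p = 0.1).

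Of the kinases that hold CDK1 back, PKMYT1 was close to the floor of the table before birth, at 0.0587, 0.257 and 0.0348 FPKM, and reached 1.57, 3.20 and 3.64 FPKM after it. It rose by 1.73 (standard error 0.27, adjusted p = 0.0140), 24.0 times the prenatal mean of FPKM, or 59.97 times without Prenatal2, the highest prenatal lung, and went from the 2.65th to the 30.7th percentile. WEE1 was at 1.78, 1.84 and 3.09 FPKM and at 4.10, 3.82 and 4.19 FPKM, without overlap, but its difference of 0.66 did not pass (adjusted p = 0.120). Both kinases together were 0.711, 1.08 and 0.690 times CDK1 before birth and 0.411, 0.485 and 0.410 times CDK1 after it (exact two-sided permutation p = 0.1). CDKN3, a phosphatase that acts on CDKs and was counted in neither class, had 1.61, 1.57 and 0.780 FPKM and then 2.36, 3.33 and 5.47 FPKM, with a difference of 0.99 that did not pass either (adjusted p = 0.0964).

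**Figure D3:**
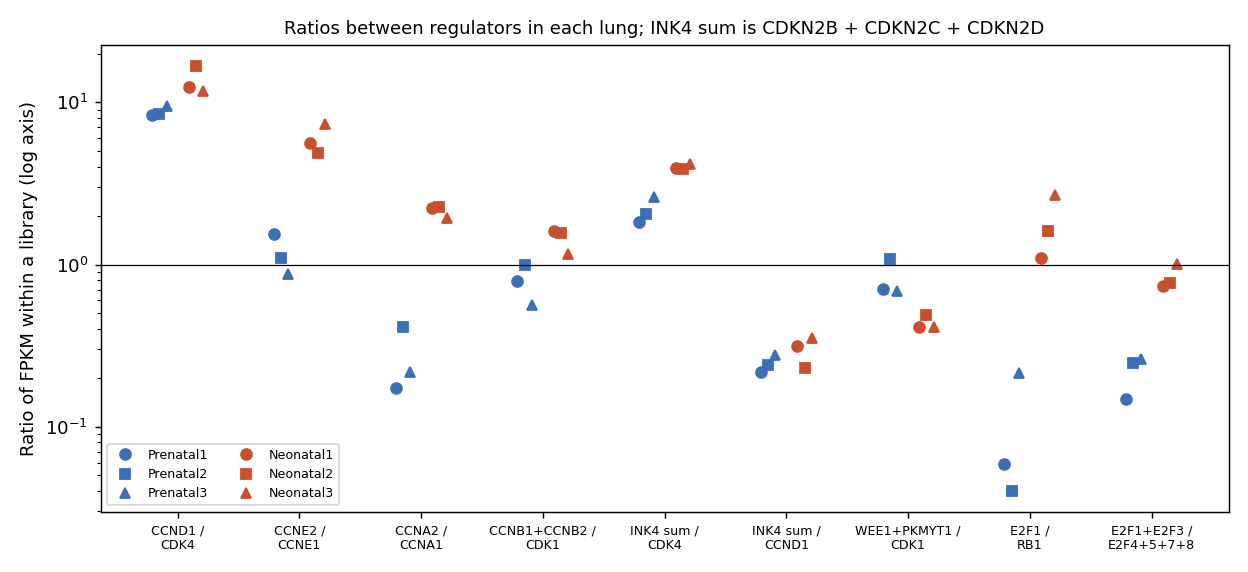
Ratios of FPKM between regulators within each library on a log axis, with prenatal lungs in blue and neonatal lungs in red. The ratio of the INK4 sum to CDK4 lies between 1.84 and 2.62 before birth and between 3.86 and 4.14 after birth, while its ratio to CCND1 overlaps between the groups.

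E2F1, an activating E2F, showed the largest difference of all 46 genes. It was at 0.372, 0.266 and 1.13 FPKM in the prenatal lungs and at 6.38, 11.6 and 11.3 FPKM in the neonatal lungs, a rise of 2.76 (standard error 0.30, adjusted p = 0.00480) and 16.5 times the prenatal mean, or 30.5 times without Prenatal3, the highest prenatal lung. E2F3, also an activator, did not overlap, at 0.772, 1.26 and 0.506 FPKM against 2.95, 1.57 and 2.43 FPKM, with a difference of 0.84 (adjusted p = 0.0992). TFDP1, the partner with which E2F factors bind DNA, rose from 5.77, 4.95 and 3.74 FPKM to 9.65, 10.7 and 9.59 FPKM (difference 0.93, adjusted p = 0.0347).

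The repressor E2Fs did not move alike. E2F7, an atypical E2F that represses E2F targets late in S phase, rose from 0.702, 0.459 and 0.340 FPKM to 3.18, 2.32 and 1.51 FPKM (difference 1.13, adjusted p = 0.0401). Its partner E2F8 rose from 0.226, 0.0596 and 0.109 FPKM to 1.82, 1.48 and 1.11 FPKM (difference 1.12, adjusted p = 0.0243). In both of them Neonatal1 had the highest and Neonatal3 the lowest neonatal value. E2F4, the main repressor of resting cells, stood at 5.17, 4.80 and 4.74 FPKM and then at 6.49, 12.1 and 9.33 FPKM, without overlap (difference 0.76, adjusted p = 0.101). E2F5, which acts with it, overlapped, at 1.64, 0.893 and 1.08 FPKM against 1.22, 1.14 and 1.60 FPKM, and its difference of 0.083 (adjusted p = 0.843) was -0.013 after median-of-ratios scaling and -0.023 after quantile normalization.

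The balance of RNA between the activating and the repressing E2F genes of the list can be read within each library. E2F1 and E2F3 together were 0.148, 0.246 and 0.261 times the sum of the 4 repressors in the prenatal lungs and 0.735, 0.772 and 1.01 times that sum in the neonatal lungs. The sum of the repressors itself went from between 6.22 and 7.74 FPKM to between 12.7 and 17.0 FPKM. The ratio differed without overlap (exact two-sided permutation p = 0.1). E2F2 was not analysed, and E2F6, which was not a member of the list, was in neither sum. E2F6 stood at 7.89, 5.60 and 6.64 FPKM before birth and at 6.77, 8.47 and 6.11 FPKM after it. Counted with the repressors, it would lower the ratio in each lung.

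The pocket proteins bind E2F factors. RB1 had 6.36, 6.58 and 5.26 FPKM before birth and 5.84, 7.19 and 4.21 FPKM after it, with a difference of -0.086 (95% interval -0.60 to 0.43, adjusted p = 0.837). RBL1 (p107), itself an E2F target, was at 3.38, 2.36 and 3.12 FPKM and then at 4.58, 3.78 and 5.83 FPKM, without overlap (difference 0.53, adjusted p = 0.191). E2F1 was 0.0586, 0.0403 and 0.215 times RB1 in the prenatal lungs and 1.09, 1.61 and 2.68 times RB1 in the neonatal lungs, so that every prenatal lung held more RB1 than E2F1 RNA and every neonatal lung more E2F1 than RB1.

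MYBL2 (B-MYB) joins the MuvB proteins LIN9 and LIN54 to switch on the mitotic genes. It rose from 0.195, 0.208 and 0.556 FPKM to 4.37, 4.71 and 2.04 FPKM (difference 1.79, standard error 0.29, adjusted p = 0.0157), with Neonatal3 the lowest of the neonatal lungs. LIN9 was at 1.87, 2.36 and 1.09 FPKM and at 3.34, 2.70 and 3.08 FPKM, without overlap (difference 0.57, adjusted p = 0.191). LIN54, the subunit that touches DNA, overlapped, with means of 4.83 ± 0.519 and 5.44 ± 1.02 FPKM (SD, n = 3 each), and its difference of 0.13 was -0.013 after median-of-ratios scaling.

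Sorted by phase, the activators of G2 and mitosis differed most. Of the 5 measured (CCNB1, CCNB2, CDK1, CDC25B and MYBL2), 4 rose, with a median difference of 2.10 over the 5. The share called higher over all mRNAs was 5.41%, and the median difference of all mRNAs was 0.13. Of the 9 activators of G1 and of the entry into S phase, 5 rose (CCND1, CCNE2, CDK2, E2F1 and TFDP1), with a median of 0.93, or 3 of 6 with a median of 0.89 without the genes named through the study. Relative to the prenatal means, the median of the G2 and mitosis activators was 2.04, 2.12 and 2.37 in the neonatal lungs and that of the G1 and S entry activators 0.90, 1.02 and 1.08. In the S and G2 group, 1 of 2 activators was called (CCNA2, which was named through the study) and both repressors were (E2F7 and E2F8). These medians were not tested against each other, and the low FPKM of several mitotic genes before birth shrinks their differences on this scale.

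**Figure D4:**
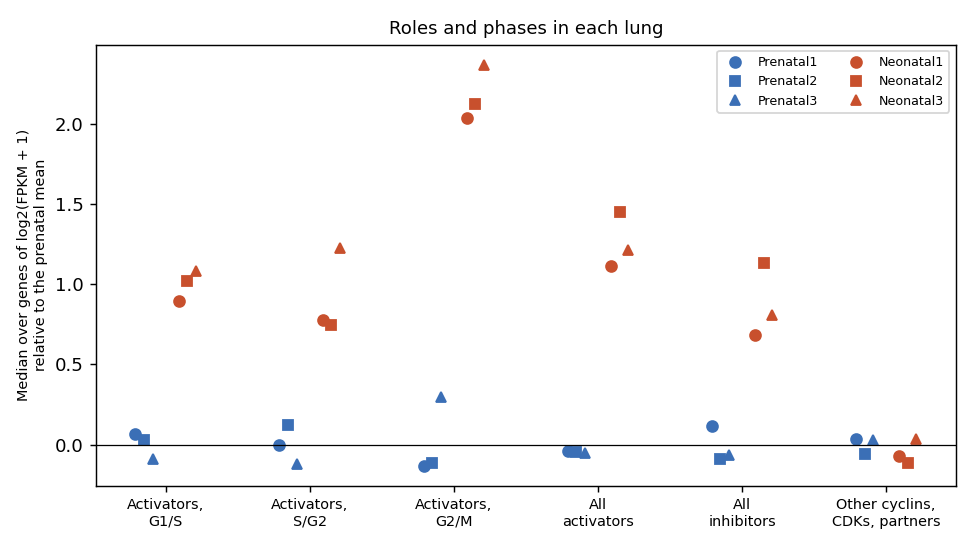
Median over the genes of a role or phase of log2(FPKM + 1), relative to the prenatal mean of each gene, for each lung, with prenatal lungs in blue and neonatal lungs in red. The G2 and mitosis activators lie between 2.04 and 2.37 in the neonatal lungs and the other cyclins, CDKs and partners between -0.11 and 0.038.

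The remaining cyclins and CDKs serve transcription or have other tasks. CCNC, CCNG1, CCNG2, CCNH, CCNI, CCNK, CCNL1, CCNT2, CDK7, CDK8, CDK9, CDK12, CDK13 and CDK14 were measured, 14 genes in all. CCNF, which was classed with them, was described above and left out here. With CCNF, 1 of 15 was called higher, against 5.41% of all mRNAs. None of the 14 was called higher or lower in limma, near the 6.87% of all mRNAs called in either direction. An unadjusted p under 0.05 was reached by 0 of the 14 in the upward direction. CCNL1 and CCNG2 reached it in the downward one, against 6.6% of all mRNAs. In 4 of the 14 every neonatal value lay below every prenatal one, against 9.64% of all mRNAs. The median difference of the 14 was -0.21. The neonatal mean was the lower one in 10 of 14, while it was the higher one in 59.9% of all mRNAs. The 14 were also abundant before birth, with a median at the 80.4th percentile of all mRNAs, against the 28.0th for the other 32 genes, CCNF among them.

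CCNL1, a cyclin of the CDK11 kinases that act in splicing, had 39.0, 35.4 and 36.9 FPKM before birth and 22.4, 24.7 and 28.6 FPKM after it, without overlap. Its difference was -0.54 (adjusted p = 0.108), and it passed after median-of-ratios scaling at -0.72 and after quantile normalization at -0.83. CCNG2, a cyclin linked to growth arrest, was at 10.9, 8.52 and 11.1 FPKM and then, with little spread, at 6.61, 6.73 and 6.75 FPKM (difference -0.53, adjusted p = 0.123), and passed after quantile normalization at -0.69. CDK13, a kinase of RNA polymerase II, stood at 27.0, 25.7 and 27.4 FPKM and at 18.2, 21.6 and 23.7 FPKM, without overlap (difference -0.33, adjusted p = 0.285), and it too passed after quantile normalization, at -0.59.

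CDK7 with CCNH forms the kinase that activates other CDKs and works in the transcription factor TFIIH. CDK7 was at 6.57, 5.05 and 5.41 FPKM before and 4.82, 3.19 and 3.48 FPKM after birth, without overlap (difference -0.48, adjusted p = 0.215), while CCNH overlapped, with means of 14.6 ± 1.87 and 12.8 ± 2.08 FPKM (SD, n = 3 each). CDK8 of the Mediator complex spread widely after birth, at 10.4, 4.64 and 19.6 FPKM against 16.0, 16.6 and 12.5 FPKM before it (difference -0.53, 95% interval -1.55 to 0.48). Its cyclin CCNC had means of 17.5 ± 2.73 and 21.3 ± 4.33 FPKM (SD, n = 3 each).

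CDK9, the kinase that releases paused RNA polymerase II, was the most abundant CDK of the list in both groups, with means of 49.2 ± 5.96 and 44.8 ± 11.2 FPKM (SD, n = 3 each). Its cyclin CCNT2 had 8.40 ± 0.436 and 7.60 ± 0.515 FPKM (SD, n = 3 each), and the difference of -0.13 had a 95% interval from -0.51 to 0.25. CDK12 had 8.84 ± 0.790 and 8.98 ± 0.430 FPKM and its cyclin CCNK 1.47 ± 0.459 and 1.87 ± 1.03 FPKM (SD, n = 3 each), with overlapping groups for both. CDK14, a membrane-bound kinase of Wnt signalling, overlapped as well, at 20.9, 32.0 and 34.0 FPKM against 26.4, 28.3 and 35.0 FPKM. The differences of CDK12 and CDK14, at 0.022 and 0.065, were -0.14 and -0.11 after median-of-ratios scaling. CCNG1 had means of 39.0 ± 4.53 and 33.1 ± 4.79 FPKM, and CCNI, an atypical cyclin, 38.5 ± 3.10 and 29.9 ± 8.91 FPKM (SD, n = 3 each), both with overlapping groups.

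How firmly the calls stand differs between the genes. CCNA2, CCNB1, CCNB2, CCNE2, CCNF, CDK1 and E2F1, 7 of the 17, kept an adjusted p of 0.05 or less with any 1 of the 6 animals left out, where the highest was 0.0472 for CDK1. The other 10 lost it in at least 1 such fit, which has fewer samples. CDKN2C lost it without Prenatal1, Neonatal2 or Neonatal3, reaching 0.0694, MYBL2 without Prenatal1, Prenatal2 or Neonatal2, reaching 0.0908, and CDKN2B without Prenatal1, Prenatal2, Neonatal2 or Neonatal3, reaching 0.102. E2F8 lost it without Neonatal2 or any prenatal animal, reaching 0.0992, and CCND1, CDK2 and PKMYT1 without any animal but Neonatal1, reaching 0.0718, 0.0953 and 0.0650. CKS2, E2F7 and TFDP1 lost it without any 1 animal, and also after median-of-ratios scaling, with adjusted p of 0.0590, 0.0618 and 0.0548. The number of the 46 called higher was 7 without Prenatal1 or Neonatal2, 8 without Prenatal2, 9 without Neonatal3, 10 without Prenatal3 and 15 without Neonatal1, beside shares over all mRNAs of 1.12% to 5.38% in these fits.

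Genes around the network were read from lists set by function. Beside them, the share called higher over all mRNAs was 5.41%. Of the mitotic genes that FOXM1 and B-MYB switch on, all 16 measured of 20 listed rose, with a median difference of 2.03. TOP2A, which untangles DNA before division, rose by 2.92 and the mitotic motor KIF20A by 2.71, and the smallest rises were those of the kinase PLK1 (1.62) and of FOXM1 itself. FOXM1 stood at 0.237, 0.182 and 0.155 FPKM in the prenatal lungs and at 2.60, 2.10 and 2.88 FPKM in the neonatal lungs (difference 1.56, adjusted p = 0.00718). Of the S phase genes that E2F factors control, 8 of 13 measured rose, with a median of 1.82, led by the helicase subunits MCM4 (3.08) and MCM5 (2.79). The polymerase subunit POLA1 (-0.13) and the licensing inhibitor GMNN (0.22) had the smallest differences and did not pass.

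Among genes that remove cyclins and inhibitors, the pattern was mixed. Over all mRNAs, 5.41% were called higher and 6.87% in either direction. The APC/C ubiquitin ligase destroys mitotic cyclins, and 4 of 11 measured genes around it rose. They were the ubiquitin-conjugating enzyme UBE2C (3.40), the activator CDC20 (2.09), the inhibitor FBXO5 and the core subunit ANAPC7, whereas ANAPC1 differed by -0.12 and ANAPC4 had means of 3.96 and 4.19 FPKM. Of 6 measured genes of the SCF ligase, which removes CDK inhibitors and E-type cyclins, none was called in limma, at an unadjusted p under 0.05 in 0 of the 6. SKP2, its receptor for p27, differed by 0.44 (adjusted p = 0.276) and was at 3.95, 3.46 and 5.62 FPKM against 6.90, 5.03 and 6.61 FPKM, and FBXW11, CUL1 and CAND1 differed by 0.19, 0.022 and -0.32.

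Of 11 measured genes listed as antiproliferative and FOXO genes, 2 rose, 1 fell and 8 did not pass, with a median of -0.22. The list also held MDM2, which is neither, and the median is the value of MDM2. Over all mRNAs the shares called higher and lower were 5.41% and 1.45%. In 6 of the 11 every neonatal value lay below every prenatal one, against 9.64% of all mRNAs, and in 3 above, against 20.9%. At an unadjusted p under 0.05, 5 of the 11 were lower, against 6.6% of all mRNAs, and 3 were higher. KLF9, a repressor of growth that glucocorticoids induce, fell by 1.49 (adjusted p = 0.0152), and SESN1, a stress-induced sestrin, had a difference of -1.10 (adjusted p = 0.0700). The kinase PLK2 rose by 1.39 and the growth arrest gene GADD45G by 1.24. Of 19 further DREAM, CDK and cyclin genes, 1 was called higher, near the share over all mRNAs. It was CDK16, which rose by 0.95 (adjusted p = 0.0361). MYBL1 had a difference of 0.92 (adjusted p = 0.0706), and the CDK5 activator CDK5R1 and the kinase DYRK1A had -0.35 and -0.28.

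**Figure D5:**
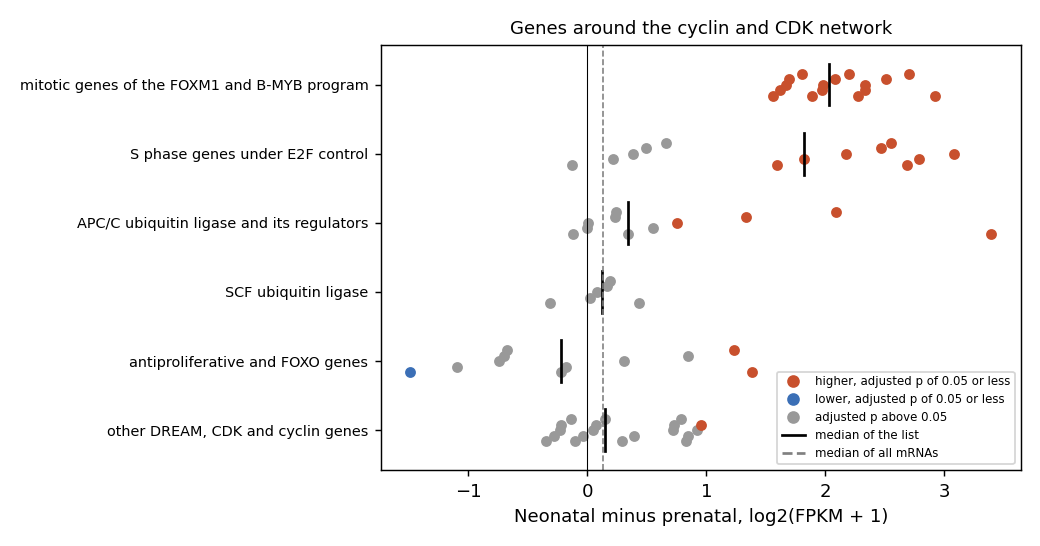
Difference between neonatal and prenatal lungs on the log2(FPKM + 1) scale for each measured gene of 6 lists, with black bars at the list medians and a dashed line at the median of all mRNAs. All 16 mitotic genes are called higher (red), and none of the 6 SCF genes is.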

How the data were processed

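Bases were called with CASAVA 1.8.2, reads were mapped to Sscrofa10.2 with TopHat2 2.1.0, and the authors computed FPKM with Cufflinks 2.2.1 from strand-specific Ribo-Zero libraries, keeping mRNAs above 0.5 in at least 1 sample. The deposited FPKM were used unscaled. All 6 value columns matched a sample by name, and 0 were left over. The lncRNA table was not used. Symbols came from a reference table for 9478 rows and from the supplementary table of called genes, of which 1998 rows were held, for 329 more.

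Log2(FPKM + 1) over all 14579 mRNAs went into limma 3.58.1 under R 4.3.3, with a mean-variance trend, after a trial on simulated data. Levels, ratios and exact permutation tests over samples were computed in Python 3.11.15. The exact test over samples cannot go below 0.1.

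The members and lists were chosen with earlier results of these data known. Values in every sample were given by rule for members past the threshold and for the core genes. Of each list of genes around the network, the 2 largest and 2 smallest differences, FOXM1 and SKP2 were named. FBXO5, ANAPC7 and E2F6 were added after their values were seen. From 1 of these lists 1 gene was left out and is not reported here. Alternatives were pseudocounts of 0.5 and 0.1, only mRNAs over 1 FPKM in 3 samples or more, 2 scalings, no trend, a block by replicate number, and 1 sample left out at a time.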

Additional observations from a re-analysis of the deposited data

How the results depend on the processing

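The number of mRNAs past the threshold was 1001 and the number of the 46 genes called higher 17. With the replicate number as a block these were 401 and 11, but the numbers do not pair the animals, which came from different sows. Deviations of same-numbered animals correlated at -0.041, -0.0043 and 0.00047. With 1 animal left out the counts lay between 196 and 944 and between 7 and 15. Calls lower were 0, but 1 after median-of-ratios scaling and 3 after quantile normalization. The median difference of the 46 genes, 0.55, was 0.73 with a pseudocount of 0.1 and 0.39 for the 41 genes named by the reference, a choice made after seeing the data. The median of activators minus that of inhibitors, 0.54, was 0.43 after quantile normalization and between 0.45 and 0.56 with 1 animal left out, but 0.22 for the genes named by the reference, also chosen after seeing the data. Small differences changed sign. After median-of-ratios scaling CDK12, CDK14, E2F5 and LIN54 stood at -0.14, -0.11, -0.013 and -0.013, and after quantile normalization CDK12, CDK14 and E2F5 at -0.15, -0.22 and -0.023. With 1 animal left out the ranges were -0.018 to 0.087 for CDK12, -0.15 to 0.19 for CDK14, -0.020 to 0.22 for E2F5, -0.075 to 0.48 for CCNK, -0.32 to 0.039 for CDK9 and -0.24 to 0.088 for RB1. Their cause was not tested. Without read counts, precision rests on the spread of 3 animals a group, which limma moderates by a trend over all mRNAs. Genes under 1 FPKM before birth have uncertain folds.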
